A study of Homo sapiens with 8 samples.

Results

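A panel of 50 genes for proteoglycans and for the synthesis of glycosaminoglycans was followed in Hs578T cells kept at low or high glucose. The members were the rows of the table whose symbol is on a list of sugar and sulfate donor enzymes, chain-building and chain-modifying enzymes, core proteins and the hyaluronan receptor CD44, and all 50 were among the 21077 genes of the table. Hs578T is an estrogen receptor-negative breast cancer line with a mesenchymal phenotype. Cells were seeded in flasks and exposed for 48 hours to 5 mM glucose (low glucose, 4 libraries) or 25 mM glucose (high glucose, 4 libraries), and their polyadenylated RNA was sequenced. In the study's glucose experiments both groups were first conditioned in low glucose and were grown without serum. All libraries come from 1 cell line, and the labels do not tie replicates to separate experiments. The spread behind each p value is that among libraries of a group, possibly technical.

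Proteoglycans are core proteins that carry long sulfated sugar chains. The chains start from a xylose on a serine of the core, continue through a short linker of galactose and glucuronic acid, and then grow either as heparan sulfate or as chondroitin sulfate, which an epimerase can turn into dermatan sulfate. Sulfotransferases then place sulfate groups that decide which growth factors and matrix proteins a chain binds, and hyaluronan, which is made at the cell surface without a core protein or sulfate, shares the same glucose-derived building blocks. In the mesenchymal cells of breast tissue, decorin, biglycan, lumican and hyaluronan are major components of the matrix, whereas syndecans and glypicans hold heparan sulfate at the cell surface.

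Values are CPM, the counts of a gene relative to the scaled size of its library, and 1 count corresponded to 0.0867 to 0.118 CPM at 10244887 to 11956682 estimated counts per library. Libraries correlated more closely within a group (r = 0.992 to 0.995) than between groups (0.941 to 0.951). Summed signal of 6 mesenchymal markers was 52246 to 55997 CPM in low and 30317 to 31639 CPM in high glucose, mostly from FN1, and that of 6 epithelial markers was 275 to 291 CPM in low and 111 to 129 CPM in high glucose, mostly from KRT18, with EPCAM at 0. The hormone receptor genes ESR1 and PGR stayed below 0.5 CPM. Leukocyte markers summed to 0.217 to 0.885 CPM in low and 1.30 to 1.91 CPM in high glucose for the 3 of 5 genes in the table, with LYZ at 0. The 4 endothelial markers summed to 2.12 to 2.77 CPM in low and 7.12 to 8.58 CPM in high glucose, with CDH5 at 0. PECAM1 rose from 2.05 ± 0.334 to 5.80 ± 0.603 CPM (limma, adjusted p = 1.46e-06). VWF, KDR and the leukocyte marker PTPRC were also higher in high glucose, each below 2 CPM. These 3 genes passed the filter of 0.5 CPM in 2 libraries only through their high-glucose libraries, which favours a rise. The part of these genes in the results was not tested. In bulk RNA of this kind, fewer cells of a type and less RNA per cell cannot be told apart.

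The panel shifted in both directions at once. A total of 48 members passed the filter of 0.5 CPM in 2 libraries, and 47 of them (97.9%) passed the limma test at a Benjamini-Hochberg adjusted p under 0.05, against 72.9% of all 15570 genes tested. There were 31 members higher in high glucose (64.6%, against 35.7% of all genes) and 16 lower (33.3%, against 37.2% of all genes). The groups did not overlap for 45 members (93.8%, against 66.7% of all genes). The members were chosen with earlier results of these data known, so these shares cannot serve as a test of the pathway. Of 54 other pathway genes tested, 72.2% were called and 63.0% had groups that did not overlap. The median change of the tested members was 0.38 on the log2(CPM + 1) scale, against -0.0003 for all genes, and the median absolute change was 0.65 against 0.48. The median level of the tested members, 72.5 CPM, was above that of all genes, 20.1 CPM, and higher counts carry less counting error. The split between directions moved with the scaling: when each library was set to the same total, 32 members were higher and 10 lower, while all genes went from 5553 higher and 5797 lower to 7325 higher and 4348 lower and their median moved to 0.20.

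With the deposited scaling, each role in the pathway held genes called in both directions, except the 6-O-endosulfatases, of which SULF1 alone was tested. The plot of changes by role shows this pattern, with the donor enzymes split 2 to 2 and the linker enzymes 3 higher to 2 lower. Of the enzymes that build heparan sulfate 3 were higher and 1 was lower, of those that modify it 5 were higher and 1 was lower, and of those that build chondroitin 4 were higher and 2 were lower. Sulfotransferases and the epimerase of chondroitin and dermatan sulfate had 6 higher and 1 lower. Among core proteins, 3 of 4 syndecans were higher, whereas 2 of 3 glypicans and 2 of 3 small leucine-rich proteoglycans were lower. With the same total in each library, PAPSS1 and XYLT1 changed sign, and NDST2, CHPF, UST and HSPG2 no longer passed as lower. The enzymes that modify heparan sulfate and those that sulfate or epimerize chondroitin then held no gene called lower. Nor did the group of HSPG2, CSPG4 and CD44. Of all genes, 35.7% were higher and 37.2% lower with the deposited scaling, so both directions are likely in most groups of genes.

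**Figure D1:**
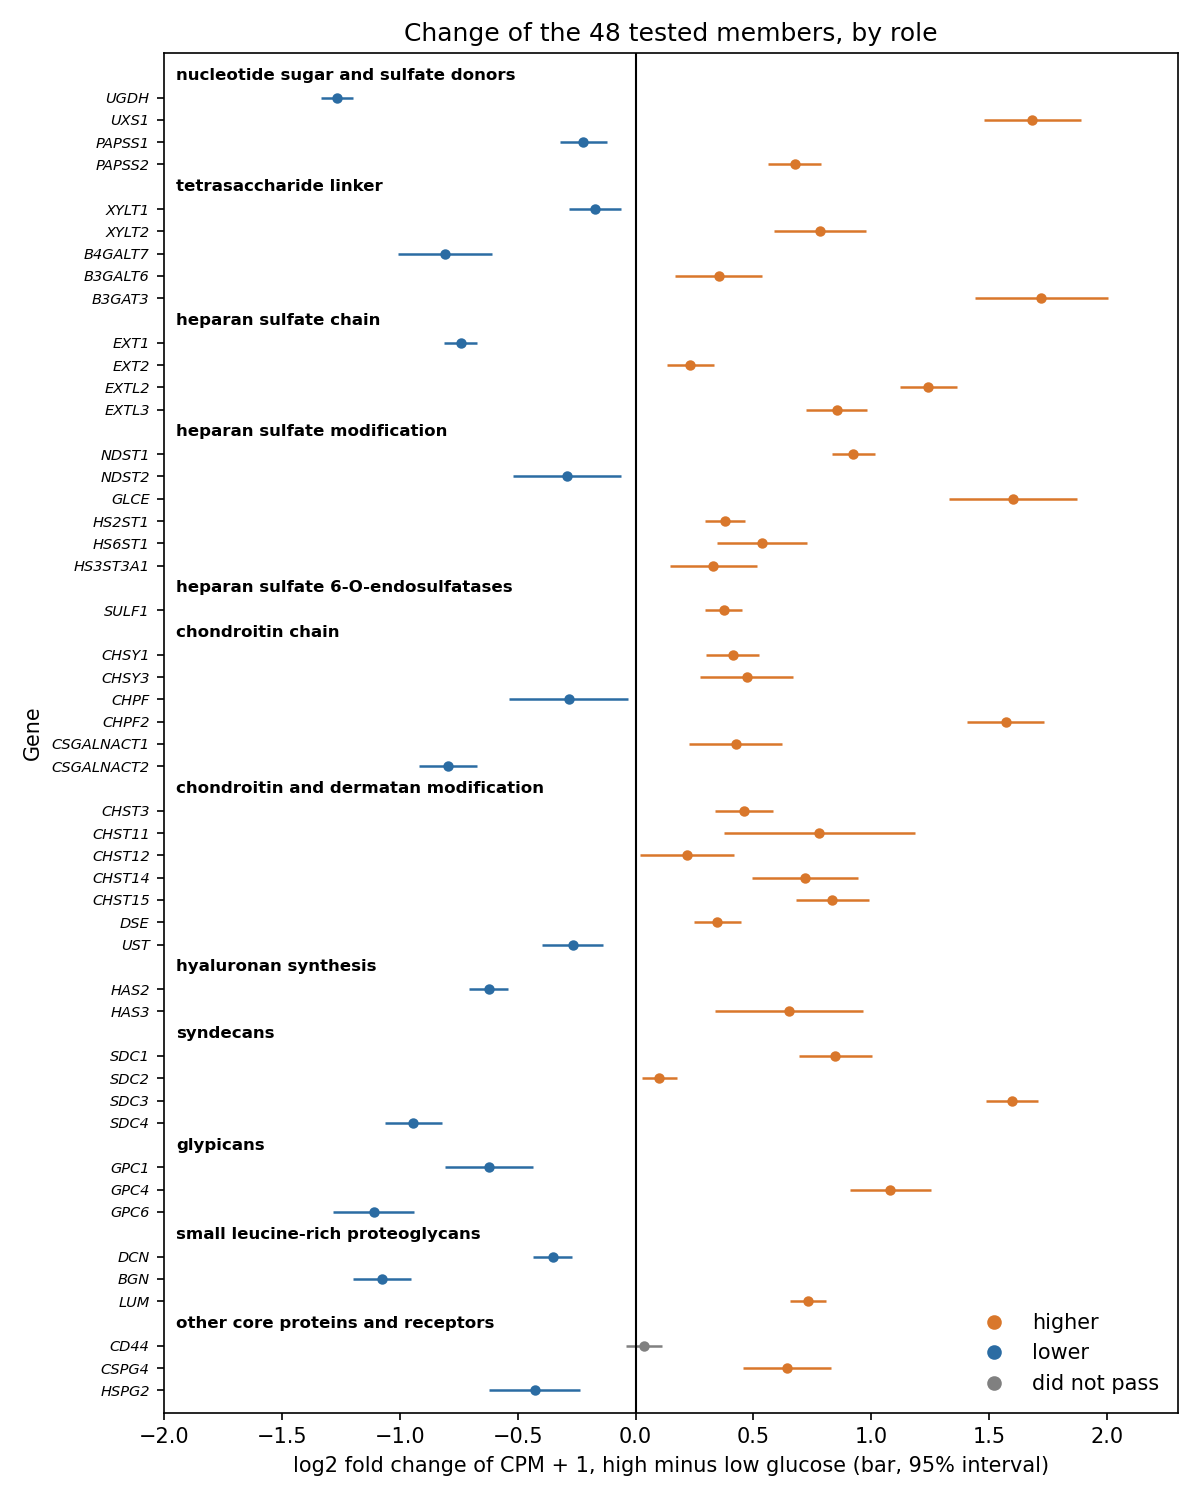
Change of the 48 tested members between 25 mM and 5 mM glucose as log2 fold change of CPM + 1, with 95% intervals, grouped by role; orange, higher; blue, lower; grey, did not pass. B3GAT3 (1.72) and UXS1 (1.68) lie farthest to the right, UGDH (-1.27) farthest to the left, and only CD44 crosses 0.

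Promoter sequences are shown for 3 pairs of members that were called in opposite directions with the deposited scaling and act on the same sugar, work in the same step or belong to the same family: UGDH and UXS1, CHPF and CHPF2, and SDC3 and SDC4. Each is the 250 bases before the transcription start listed by RefSeq (GRCh38.p14), written 5′ to 3′ on the strand of the gene, with GGGCGG, the core of the Sp1 box, and its reverse complement in capitals. The windows are chr4:39527440-39527689 (minus strand) for UGDH, chr2:106194302-106194551 (minus) for UXS1, chr2:219543810-219544059 (minus) for CHPF, chr7:151232233-151232482 (plus) for CHPF2, chr1:30908759-30909008 (minus) for SDC3 and chr20:45348425-45348674 (minus) for SDC4. The start listed for SDC3 lies 977 bases inside the gene's RefSeq span, and each of the other windows ends just before its gene's first base.
UGDH: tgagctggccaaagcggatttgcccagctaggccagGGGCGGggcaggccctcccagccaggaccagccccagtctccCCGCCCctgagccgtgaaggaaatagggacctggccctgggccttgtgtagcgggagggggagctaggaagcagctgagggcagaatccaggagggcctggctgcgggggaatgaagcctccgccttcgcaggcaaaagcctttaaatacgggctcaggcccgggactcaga
UXS1: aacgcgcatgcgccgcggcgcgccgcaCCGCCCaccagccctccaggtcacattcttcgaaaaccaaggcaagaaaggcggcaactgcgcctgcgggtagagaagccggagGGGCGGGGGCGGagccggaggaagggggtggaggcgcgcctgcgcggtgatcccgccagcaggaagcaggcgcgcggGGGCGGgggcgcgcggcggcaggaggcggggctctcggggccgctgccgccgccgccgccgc
CHPF: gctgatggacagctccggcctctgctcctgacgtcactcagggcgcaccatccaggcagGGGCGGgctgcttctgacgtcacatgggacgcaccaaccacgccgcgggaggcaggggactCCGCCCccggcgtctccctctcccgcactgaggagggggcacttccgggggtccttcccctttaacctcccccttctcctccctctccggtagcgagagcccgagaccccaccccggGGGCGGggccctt
CHPF2: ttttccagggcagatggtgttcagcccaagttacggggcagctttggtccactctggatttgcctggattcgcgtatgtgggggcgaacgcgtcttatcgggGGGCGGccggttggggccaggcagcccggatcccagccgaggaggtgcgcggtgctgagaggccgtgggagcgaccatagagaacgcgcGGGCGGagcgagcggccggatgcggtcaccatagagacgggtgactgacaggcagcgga
SDC3: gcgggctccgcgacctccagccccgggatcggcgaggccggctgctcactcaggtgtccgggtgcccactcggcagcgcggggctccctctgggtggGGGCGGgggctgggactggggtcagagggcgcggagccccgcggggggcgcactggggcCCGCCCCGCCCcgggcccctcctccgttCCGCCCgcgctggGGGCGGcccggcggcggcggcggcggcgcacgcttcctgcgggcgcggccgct
SDC4: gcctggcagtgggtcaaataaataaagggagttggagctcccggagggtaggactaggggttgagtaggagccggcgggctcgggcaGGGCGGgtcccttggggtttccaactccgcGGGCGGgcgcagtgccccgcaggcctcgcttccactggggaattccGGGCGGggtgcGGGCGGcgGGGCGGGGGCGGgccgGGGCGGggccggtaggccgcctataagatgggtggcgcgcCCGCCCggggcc

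These windows were rich in G and C, at 66% for UGDH and CHPF2, 70.8% for CHPF, 73.6% for SDC4, 77.2% for UXS1 and 83.6% for SDC3. GGGCGG occurred 2 times for UGDH, 4 for UXS1, 3 for CHPF, 2 for CHPF2, 5 for SDC3 and 8 for SDC4, counting both strands and runs that share a base. RefSeq listed 56 such windows for 41 of the members. GGGCGG was found in 82.1% of them, against 42.6% of all 35116 windows of the same length. It stood in 30 of 35 windows of higher members and in 13 of 15 of lower members, so it did not separate the directions. TATAAA was found in 5.36% of the windows of members against 10.7% of all windows, CCAAT in 16.1% against 32%, CACGTG in 10.7% against 6.34% and TGACG in 21.4% against 21.2%. A match describes the letters of the window and not a bound site.

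The enzymes that make the nucleotide sugars were among the members that moved furthest, in opposite directions. UGDH (chr4:39498755-39527439, GRCh38.p14), which oxidizes UDP-glucose to UDP-glucuronic acid, the acidic building block of hyaluronan, heparan sulfate and chondroitin sulfate, was measured at 372, 365, 366 and 362 CPM (366 ± 4.27) in low glucose and at 152, 152, 149 and 154 CPM (152 ± 1.88) in high glucose. Values in parentheses after those of the libraries are mean ± SD (n = 4) here and for other members. The libraries of a group lay close together relative to the gap between groups, and the fall was 2.42-fold. Its log2 change of -1.27 ± 0.0323 (SE) was the most negative among the tested members (limma, adjusted p = 4.14e-14). UXS1 (chr2:106093311-106194301) converts UDP-glucuronic acid to the UDP-xylose that starts the linker, and it stood at 9.30, 7.87, 11.1 and 10.6 CPM (9.71 ± 1.43) in low and 33.9, 32.2, 32.5 and 34.1 CPM (33.2 ± 0.993) in high glucose. It was thus 3.42-fold higher in high glucose, with a log2 change of 1.68 ± 0.10 (limma, adjusted p = 3.12e-10).

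PAPSS1 and PAPSS2 make PAPS, the sulfate donor of all sulfotransferases of the pathway. PAPSS1 read 91.6, 86.0, 88.6 and 90.7 CPM (89.2 ± 2.49) in low glucose and 80.0, 72.6, 74.1 and 78.9 CPM (76.4 ± 3.62) in high glucose. PAPSS2 read 44.2, 47.8, 44.8 and 42.6 CPM (44.8 ± 2.18) in low and 71.9, 76.8, 69.3 and 70.7 CPM (72.2 ± 3.25) in high glucose. The groups did not overlap for either gene: PAPSS2 rose by 0.68 ± 0.0532 (limma, adjusted p = 1.37e-08), and PAPSS1 fell slightly with the deposited scaling (-0.22 ± 0.0466, adjusted p = 0.000499) but stood at 0.0193 with the same total in each library. The CPM of PAPSS1 over that of PAPSS2 went from 1.996 ± 0.145 to 1.06 ± 0.0798 (mean ± SD, n = 4).

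Linker enzymes followed the same mixed pattern. B3GAT3 (chr11:62615296-62621986), which adds the glucuronic acid that completes the linker, was measured at 6.31, 6.97, 7.15 and 8.61 CPM (7.26 ± 0.969) in low and at 31.0, 30.6, 24.2 and 20.2 CPM (26.5 ± 5.23) in high glucose. Its rise was the largest in the panel (1.72 ± 0.13 on the log2 scale, 3.65-fold, limma adjusted p = 9.69e-09), although high-glucose replicates 3 and 4 lay well below replicates 1 and 2. B4GALT7 (chr5:177600132-177610330), which adds the first galactose, went the other way, from 33.6, 31.9, 34.9 and 32.2 CPM (33.2 ± 1.38) in low to 20.0, 20.7, 19.0 and 14.8 CPM (18.6 ± 2.67) in high glucose. The fall was 1.78-fold (log2 change -0.81 ± 0.0928, limma adjusted p = 1.11e-06), with all high-glucose libraries below the lowest low-glucose library. B3GALT6, the enzyme of the second galactose, rose modestly from 16.3 ± 1.45 to 21.1 ± 1.56 CPM (log2 change 0.35 ± 0.0863, limma adjusted p = 0.00180).

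The xylosyltransferases XYLT1 and XYLT2 commit a core protein to carrying chains. XYLT1 was at 87.2, 87.9, 89.1 and 99.9 CPM (91.0 ± 5.95) in low and 80.7, 84.0, 76.8 and 80.8 CPM (80.6 ± 2.92) in high glucose, and its small fall (-0.17 ± 0.0512, limma adjusted p = 0.00690) became 0.0697 with the same total in each library and did not pass there or with quantile normalization. XYLT2 was at 13.1, 12.1, 13.5 and 12.9 CPM (12.9 ± 0.582) in low and 22.2, 27.2, 21.9 and 20.8 CPM (23.0 ± 2.83) in high glucose. XYLT2 thus rose 1.78-fold without overlap of the groups, with a log2 change of 0.78 ± 0.0913 (limma, adjusted p = 1.37e-06).

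**Figure D2:**
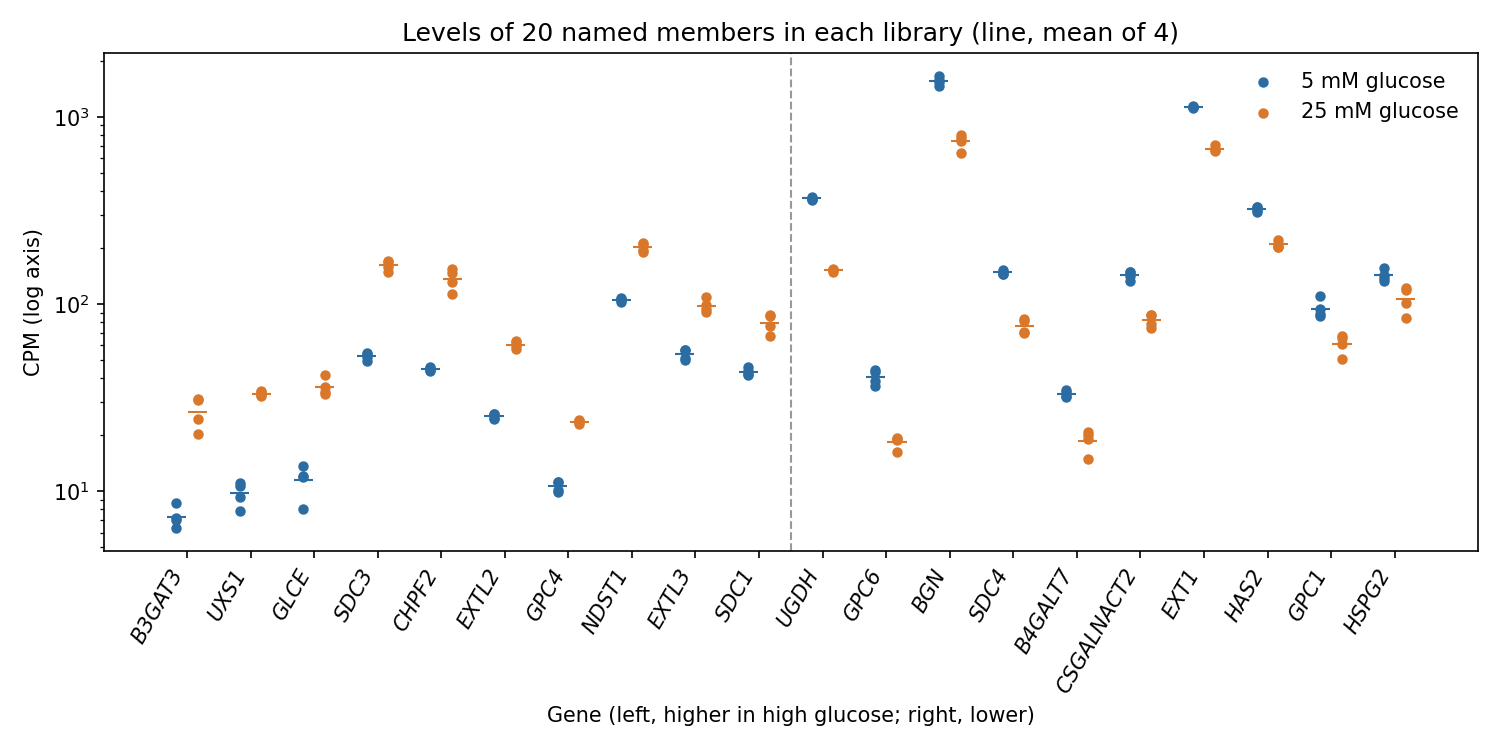
CPM (log axis) of the 10 members with the largest rise and the 10 with the largest fall among called members with at least 5 CPM, in each of the 4 low-glucose (blue) and 4 high-glucose (orange) libraries; lines mark means. The groups are separate for each of these genes, and HSPG2, from 142 ± 9.90 to 106 ± 17.3 CPM, shows the smallest gap.

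EXT1 fell while its partners rose. EXT1 and EXT2 together form the polymerase of heparan sulfate. EXT1 was at 1145, 1130.5, 1125 and 1123 CPM (1131 ± 9.91) in low glucose and at 665, 656, 675 and 707 CPM (676 ± 22.0) in high glucose. EXT2 was at 126, 112, 119.8 and 121 CPM (119 ± 5.77) in low and 145, 148, 135 and 134 CPM (141 ± 7.04) in high glucose. EXT1 thus dropped 1.67-fold (-0.74 ± 0.0326, limma adjusted p = 1.42e-11) and EXT2 gained 1.18-fold (0.23 ± 0.0474, adjusted p = 0.000392), with no overlap of the groups in either.

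EXTL3 and EXTL2 act at the end of the linker, where EXTL3 adds the N-acetylglucosamine that commits a chain to heparan sulfate. EXTL3 rose from 56.6, 56.4, 50.4 and 51.5 CPM (53.7 ± 3.24) in low to 109, 99.2, 93.7 and 90.2 CPM (98.0 ± 8.11) in high glucose (0.85 ± 0.0615, limma adjusted p = 4.91e-09). EXTL2 (chr1:100872372-100895179), which can cap the linker with a hexosamine, rose from 25.7, 24.5, 24.2 and 25.9 CPM (25.1 ± 0.869) in low to 62.4, 57.6, 63.3 and 59.4 CPM (60.7 ± 2.64) in high glucose (1.24 ± 0.0566, limma adjusted p = 2.23e-11). Both genes were higher in each high-glucose library than in any low-glucose library, EXTL2 by 2.42-fold and EXTL3 by 1.82-fold on average.

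Of the 6 enzymes tested that modify heparan sulfate, 5 rose. NDST1 (chr5:150497779-150558211), which replaces acetyl with sulfate on glucosamine and so opens the chain to later steps, was at 103, 108, 105 and 106 CPM (106 ± 2.04) in low and 213, 208, 194 and 190.5 CPM (201 ± 10.8) in high glucose (0.92 ± 0.0429, limma adjusted p = 2.74e-11). GLCE (chr15:69160635-69272207), the epimerase that makes iduronic acid, was at 12.1, 7.98, 13.7 and 11.9 CPM (11.4 ± 2.41) in low and 36.0, 33.9, 33.0 and 42.0 CPM (36.2 ± 4.03) in high glucose. It rose 3.18-fold (1.60 ± 0.13, limma adjusted p = 1.66e-08), and the gap between groups was larger than the spread within either. HS2ST1, the 2-O-sulfotransferase, went from 76.1 ± 1.96 to 99.3 ± 0.874 CPM, HS6ST1, a 6-O-sulfotransferase, from 18.9 ± 1.15 to 28.0 ± 3.63 CPM, and HS3ST3A1, a 3-O-sulfotransferase, from 13.3 ± 0.873 to 17.0 ± 1.16 CPM. These 3 rises were smaller, at 0.38, 0.54 and 0.33 on the log2 scale (limma, adjusted p = 5.09e-07, 6.73e-05 and 0.00304).

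NDST2, a relative of NDST1, was at 17.8, 24.4, 26.4 and 20.6 CPM (22.3 ± 3.83) in low and 18.5, 19.3, 16.9 and 16.7 CPM (17.9 ± 1.25) in high glucose. The groups overlapped, since low-glucose replicate 1 lay below 2 high-glucose libraries, and the log2 change of -0.29 ± 0.11 (limma, adjusted p = 0.0238) did not pass in several of the alternatives. HS6ST2, another 6-O-sulfotransferase, was near the floor, at 0 to 0.221 CPM across libraries, and was not tested. SULF1, an extracellular enzyme that removes 6-O-sulfate from finished heparan sulfate, rose from 711 ± 19.8 to 922 ± 39.6 CPM (0.37 ± 0.0372, limma adjusted p = 2.14e-07), whereas its relative SULF2, at 0.0867 to 0.472 CPM, was below the filter.

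Of the genes that build chondroitin, CHPF2 moved furthest. CHPF and CHPF2 work with the chondroitin synthases to lengthen the chain. CHPF was at 78.9, 107, 86.1 and 79.6 CPM (88.0 ± 13.3) in low and 77.9, 85.3, 73.3 and 53.6 CPM (72.5 ± 13.6) in high glucose, with overlapping groups and a log2 change of -0.28 ± 0.12 (limma, adjusted p = 0.0428) that did not pass under the 3 other scalings. CHPF2 (chr7:151232483-151238822) was at 43.8, 45.9, 44.3 and 45.5 CPM (44.9 ± 0.968) in low and 154, 147, 131 and 112 CPM (136 ± 18.5) in high glucose. CHPF2 rose 3.04-fold (1.57 ± 0.0761, limma adjusted p = 4.40e-11), and its lowest high-glucose library, replicate 4, was still far above the low-glucose range.

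CSGALNACT1 and CSGALNACT2 add the first N-acetylgalactosamine, the step that sets a chain on the chondroitin path. CSGALNACT2 (chr10:43138445-43185308) fell from 141, 133, 148 and 148 CPM (143 ± 7.04) in low to 77.9, 74.5, 87.8 and 87.2 CPM (81.8 ± 6.68) in high glucose (-0.80 ± 0.0570, limma adjusted p = 4.55e-09). CSGALNACT1 rose from 17.4, 21.3, 17.1 and 22.4 CPM (19.5 ± 2.69) in low to 26.4, 25.6, 24.8 and 28.9 CPM (26.4 ± 1.78) in high glucose (0.42 ± 0.0928, limma adjusted p = 0.000728). The groups did not overlap in either gene. The synthases CHSY1 and CHSY3 rose side by side, without overlap of the groups. CHSY1 was at 58.2, 57.1, 62.4 and 66.4 CPM (61.0 ± 4.23) in low and 80.7, 79.7, 81.4 and 83.8 CPM (81.4 ± 1.74) in high glucose (0.41, limma adjusted p = 3.66e-06). CHSY3 was at 9.63, 8.995, 10.2 and 9.20 CPM (9.50 ± 0.527) in low and 14.0, 12.9, 12.8 and 14.5 CPM (13.6 ± 0.838) in high glucose (0.47, limma adjusted p = 0.000304).

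Transcripts of the enzymes that sulfate and epimerize chondroitin leaned upward. CHST15, which adds a second sulfate to galactosamine, rose from 20.9 ± 1.51 to 38.0 ± 2.35 CPM (0.84 ± 0.0722, limma adjusted p = 4.17e-08), and CHST14, the dermatan 4-O-sulfotransferase, rose from 11.0 ± 1.52 to 18.7 ± 1.69 CPM (0.72 ± 0.11, adjusted p = 1.76e-05). CHST3, the chondroitin 6-O-sulfotransferase, rose from 48.6 ± 1.86 to 67.2 ± 4.78 CPM (0.46 ± 0.0577, limma adjusted p = 3.11e-06), and DSE, the dermatan epimerase, from 80.2 ± 1.59 to 102 ± 5.54 CPM (0.35 ± 0.0466, adjusted p = 6.38e-06). Of the chondroitin 4-O-sulfotransferases, CHST11 rose from 1.94 ± 0.800 to 3.95 ± 0.738 CPM (0.78 ± 0.19, limma adjusted p = 0.00167), and CHST12, from 9.64 ± 0.435 to 11.4 ± 0.526 CPM, was close to the threshold (0.22 ± 0.0931, adjusted p = 0.0461) and did not pass in most fits that left out 1 library. UST, the uronyl 2-O-sulfotransferase, was the 1 gene of this group to fall, from 43.7 ± 2.63 to 36.2 ± 1.68 CPM (-0.27 ± 0.0607, limma adjusted p = 0.00102), and it did not pass with the same total in each library.

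Of the hyaluronan synthases of the panel, HAS2 fell and HAS3, far lower per length, rose. HAS2 was at 330.0, 309, 318 and 331 CPM (322 ± 10.6) in low glucose and 203, 203, 209.6 and 220.3 CPM (209 ± 8.35) in high glucose, a fall of 1.54-fold with no overlap (-0.62 ± 0.0390, limma adjusted p = 8.73e-10). HAS3 was at 0.332, 0.562, 0.433 and 0.590 CPM (0.479 ± 0.119) in low and 1.13, 1.30, 1.72 and 1.17 CPM (1.33 ± 0.270) in high glucose. HAS3 rose (0.65 ± 0.15, limma adjusted p = 0.000958) from a level of a few counts, and its exons overlap those of genes on the opposite strand. CD44, the main hyaluronan receptor, was at 1131, 1031, 1084 and 1084 CPM (1083 ± 40.9) in low and 1089, 1083, 1117 and 1148 CPM (1109 ± 29.8) in high glucose. Its groups overlapped, and the change of 0.036 (95% interval -0.041 to 0.11, limma adjusted p = 0.380) did not pass, although it passed as a rise of 0.28 with the same total in each library and of 0.38 with quantile normalization.

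Syndecans, transmembrane proteoglycans that act as co-receptors, split into 3 that rose and 1 that fell. SDC3 (chr1:30869466-30909735) was at 54.8, 53.9, 49.7 and 52.1 CPM (52.6 ± 2.22) in low glucose and 170.2, 169, 159 and 148 CPM (161 ± 10.2) in high glucose, a 3.07-fold rise (1.60 ± 0.0518, limma adjusted p = 5.10e-13). SDC4 (chr20:45325288-45348424), which is found at focal adhesions, was at 152, 148, 146 and 144 CPM (147 ± 3.33) in low and 81.4, 83.5, 70.6 and 70.2 CPM (76.4 ± 6.98) in high glucose, a 1.93-fold fall (-0.94 ± 0.0563, limma adjusted p = 5.09e-10). The groups of both genes were far apart relative to their spread, and per length the level of SDC4 was 56.4 ± 1.27 in low and 29.3 ± 2.67 in high glucose (CPM per kb) against 10.03 ± 0.424 in low and 30.8 ± 1.95 in high glucose for SDC3. SDC1 (chr2:20200797-20225475) rose from 43.6, 45.9, 41.5 and 42.5 CPM (43.4 ± 1.89) in low to 86.9, 86.4, 76.2 and 67.5 CPM (79.2 ± 9.28) in high glucose (0.85 ± 0.0726, limma adjusted p = 3.70e-08). SDC2 was at 315, 295, 307 and 297 CPM (304 ± 9.10) in low and 329, 336, 320.4 and 317 CPM (326 ± 8.70) in high glucose. The rise of SDC2 was small (0.10 ± 0.0354, limma adjusted p = 0.0183), and it did not pass without low-glucose replicate 4 or high-glucose replicate 2.

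Glypicans, which are tied to the membrane by a lipid anchor, also diverged. GPC4 (chrX:133300103-133415489) was at 10.1, 11.2, 11.2 and 9.91 CPM (10.6 ± 0.705) in low and 23.6, 23.5, 24.0 and 23.0 CPM (23.5 ± 0.409) in high glucose, and GPC6 (chr13:93216529-94408020) went from 44.6, 38.6, 36.5 and 43.2 CPM (40.7 ± 3.80) in low to 18.7, 16.2, 19.3 and 18.9 CPM (18.3 ± 1.39) in high glucose. GPC6 fell 2.23-fold (-1.11 ± 0.0803, limma adjusted p = 5.04e-09) while GPC4 rose 2.22-fold (1.08 ± 0.0806, adjusted p = 7.31e-09) without overlap of the groups. GPC1 (chr2:240435663-240468076) fell from 86.6, 109.7, 93.5 and 88.4 CPM (94.6 ± 10.5) in low to 65.9, 67.6, 60.8 and 50.5 CPM (61.2 ± 7.69) in high glucose (-0.62 ± 0.0869, limma adjusted p = 9.90e-06), with replicate 2 the highest in each group.

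The secreted small leucine-rich proteoglycans bind collagen fibrils. BGN (chrX:153494980-153509546), or biglycan, the member with the highest level per length (662 ± 34.4 in low and 314 ± 29.6 in high glucose, CPM per kb), was at 1568, 1662, 1532 and 1468 CPM (1557 ± 81.0) in low and 802, 774, 742 and 642 CPM (740.0 ± 69.8) in high glucose. It was lowered 2.10-fold (-1.08 ± 0.0584, limma adjusted p = 1.66e-10), with replicate 4 the lowest library in both groups. DCN, or decorin, was at 214, 195, 208 and 208 CPM (206 ± 8.06) in low and 165, 158, 162 and 161 CPM (161 ± 3.05) in high glucose (-0.35 ± 0.0384, limma adjusted p = 6.30e-07). LUM, or lumican, whose chains are of the keratan sulfate type, went against both and rose from 383 ± 13.9 to 637 ± 16.3 CPM (0.73 ± 0.0356, limma adjusted p = 4.61e-11). Of the large core proteins, HSPG2 (chr1:21822244-21937310), or perlecan of basement membranes, fell from 143, 156, 138 and 132 CPM (142 ± 9.90) in low to 118, 121, 101 and 84.0 CPM (106 ± 17.3) in high glucose (-0.43 ± 0.0906, limma adjusted p = 0.000553), a call lost with the same total in each library. CSPG4, a membrane chondroitin sulfate proteoglycan, rose from 57.3 ± 5.11 to 90.4 ± 12.6 CPM (0.64 ± 0.0878, limma adjusted p = 7.61e-06).

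Relative levels of core proteins were compared per length, as CPM per kb of the canonical GENCODE transcript, for the 13 core protein and receptor genes. BGN gave 52.6% ± 1.51 of the summed signal in low and 31.2% ± 1.97 in high glucose (mean ± SD, n = 4). LUM moved from 11.4% ± 0.542 to 23.7% ± 1.35 and CD44 from 15.9% ± 0.773 to 20.3% ± 1.22. Among these 13 genes BGN therefore led in both groups, with LUM and CD44 next to it, LUM below CD44 in low and above it in high glucose. A share also moves with the other genes: CD44 itself stood at 199 ± 7.52 in low and 204 ± 5.48 CPM per kb in high glucose. Core proteins outside the panel were not in the sum, and SRGN, for example, stood at 99.8 ± 4.14 and 110 ± 4.02 CPM per kb. SDC2 stood at 7.31% ± 0.248 and 9.79% ± 0.196, SDC4 at 4.49% ± 0.0744 and 2.90% ± 0.198, DCN at 2.40% ± 0.130 and 2.34% ± 0.0795 and GPC1 at 2.02% ± 0.199 and 1.63% ± 0.159. SDC3 rose from 0.798% ± 0.0258 to 3.05% ± 0.0998 and SDC1 from 1.09% ± 0.0317 to 2.48% ± 0.217, which placed both above GPC1 in high glucose. HSPG2, CSPG4, GPC6 and GPC4 each stayed at or below 1.08%, and the shares of DCN and HSPG2 differed between groups by less than the larger of their SDs. SDC3 and HSPG2 in low glucose, and in high glucose SDC3 and SDC4 as well as SDC1 and DCN, were neighbours in this order that differed by less than the larger of their SDs. Libraries of DCN and GPC1 overlapped in low glucose. Cells may use transcripts of another length, DCN in particular having a canonical transcript of 6850 bases, and the summed signal itself was 1214 to 1288 CPM per kb in low and 961 to 1037 in high glucose.

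**Figure D3:**
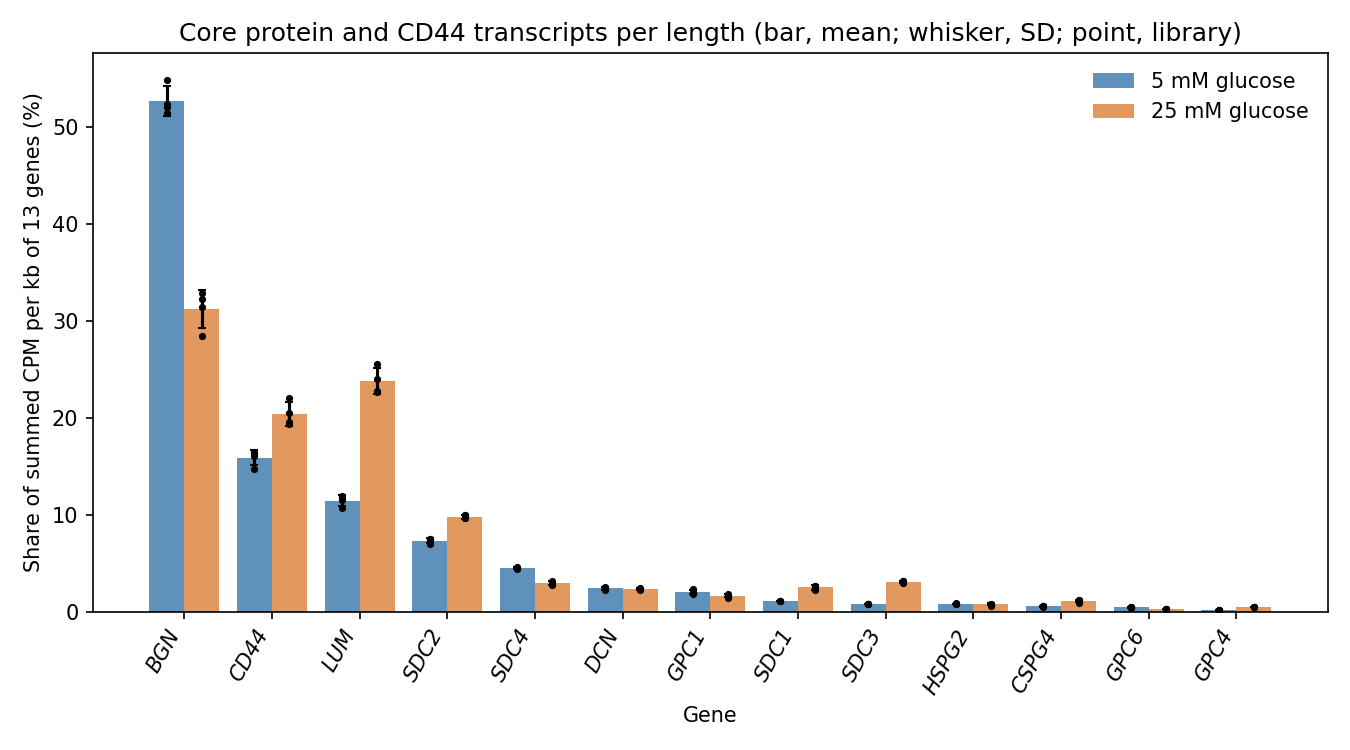
Share of each of 13 core protein and receptor genes in their summed CPM per kb of canonical transcript; bars, mean of 4 libraries; whiskers, SD; points, libraries. BGN goes from 52.6% ± 1.51 to 31.2% ± 1.97 and LUM from 11.4% ± 0.542 to 23.7% ± 1.35.

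Ratios within a library were used to ask whether related genes changed unequally, since a ratio depends little on how libraries are scaled. Of 13 pairs listed, 12 had both genes tested, and 11 of these passed a 2-sided exact permutation test of the log2 ratio of CPM + 1 (exact p = 0.0286, the smallest that 4 against 4 libraries can give, adjusted p = 0.0312 over the 12 pairs). In 9 of them the 2 genes were called in opposite directions, against 5 with the same total in each library, where PAPSS1, XYLT1, NDST2 and CHPF no longer passed as lower. Ratios of genes that each differ between groups are also likely to differ, and 66.7% of all genes had groups that did not overlap. With 35.7% of all genes called higher and 37.2% lower, opposite calls are common in pairs of any genes too. Their share among such pairs was not worked out, so the count of 9 has no background to be set against.

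The largest shift was that of GPC4 over GPC6, with log2 ratios of -2.04, -1.69, -1.63 and -2.02 in low and 0.32, 0.50, 0.30 and 0.27 in high glucose (difference 2.19). CHPF over CHPF2 had log2 ratios of 0.83, 1.21, 0.94 and 0.79 in low and -0.97, -0.78, -0.83 and -1.06 in high glucose (difference -1.86). Both log2 ratios crossed 0, and the CPM ratio went from 0.263 ± 0.0414 to 1.29 ± 0.105 for GPC4 over GPC6 and from 1.96 ± 0.267 to 0.530 ± 0.0472 for CHPF over CHPF2. Per length, CHPF stood at 29.1 ± 4.38 in low and 23.9 ± 4.48 in high glucose (CPM per kb) and CHPF2 at 11.3 ± 0.243 in low and 34.2 ± 4.64 in high glucose, so the order of the pair was reversed on that scale too. The ratio of HAS2 to HAS3 shifted by -1.28 and that of EXT1 to EXT2 by -0.98. NDST1 over NDST2 and CSGALNACT1 over CSGALNACT2 gained 1.22 and 1.22, SDC2 over SDC4 gained 1.04 and DCN over BGN gained 0.72. XYLT1 over XYLT2 changed by -0.95, PAPSS1 over PAPSS2 by -0.90 and SDC1 over SDC3 by -0.75. CHSY1 over CHSY3 was the pair that did not pass, with log2 ratios of 2.48, 2.54, 2.50 and 2.72 in low and 2.44, 2.53, 2.58 and 2.45 in high glucose, a difference of -0.060 (2-sided exact permutation p = 0.457). SULF1 and SULF2 were not compared because SULF2 was below the filter.

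**Figure D4:**
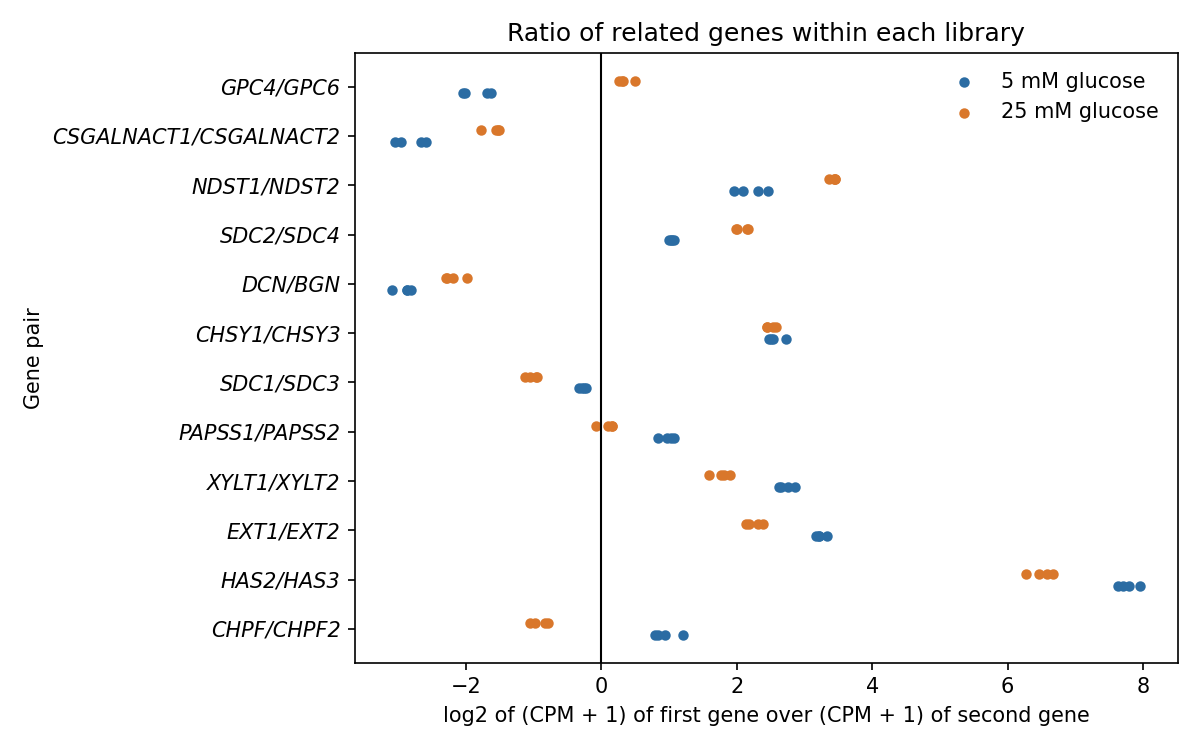
log2 ratio of CPM + 1 of 12 pairs of related members in each low-glucose (blue) and high-glucose (orange) library, ordered by the difference between groups. GPC4/GPC6 and CHPF/CHPF2 cross 0 (2.19 and -1.86), and CHSY1/CHSY3 is the pair whose groups overlap.

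Other genes of the pathway, outside the panel, were taken from a list of 76, of which 65 were in the table and 54 were tested. There were 24 higher, 15 lower and 15 that did not pass, so that 72.2% were called, close to the 72.9% of all genes, and the median change was 0.07. With the same total in each library 31 were higher and 11 lower. The lower genes of both counts include ACAN, OMD, CHST1 and HS3ST1. These would not have passed the filter on their high-glucose libraries alone, which favours a fall. Enzymes of glycosaminoglycan breakdown had 10 higher and 4 lower of 18, so that 77.8% were called, near the share of all genes. The largest rises were in genes listed under breakdown. CEMIP, which binds and depolymerizes hyaluronan, went from 304 ± 6.84 to 1212 ± 33.8 CPM (1.99 ± 0.0332, limma adjusted p = 7.65e-16). CEMIP2, described as a cell-surface hyaluronidase, went from 25.6 ± 2.74 to 93.6 ± 0.779 CPM (1.84 ± 0.0677, limma adjusted p = 2.05e-12). Whether CEMIP2 cuts hyaluronan in these cells was not tested. HMMR, an intracellular and surface hyaluronan binder also known from the mitotic spindle, rose from 8.86 ± 1.79 to 20.2 ± 1.26 CPM (1.12, limma adjusted p = 5.63e-07). The hyaluronan synthase HAS2 thus fell 1.54-fold in the same libraries in which CEMIP rose 3.98-fold and CEMIP2 3.66-fold.

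Among lysosomal enzymes, ARSB, which removes 4-O-sulfate from galactosamine, rose from 19.6 ± 0.545 to 45.6 ± 2.20 CPM (1.18, limma adjusted p = 1.23e-10) and HGSNAT, which acetylates glucosamine ends during heparan sulfate breakdown, from 77.5 ± 0.414 to 152 ± 6.55 CPM (0.96, adjusted p = 1.21e-11). Others went down: GUSB, the beta-glucuronidase, from 66.0 ± 2.35 to 35.3 ± 1.60 CPM (-0.89), IDUA, the alpha-iduronidase, from 6.96 ± 1.19 to 3.86 ± 1.11 CPM (-0.73), NAGLU from 25.5 ± 2.50 to 18.1 ± 2.67 CPM (-0.47) and GALNS from 85.5 ± 3.14 to 67.8 ± 6.05 CPM (-0.33; limma, adjusted p = 5.96e-10, 0.000966, 0.000678 and 0.000119). The fall of GALNS did not pass with the same total in each library. The lysosomal genes named here therefore moved in both directions, as the synthetic enzymes did.

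Transporters that bring donors into the secretory pathway split as well. SLC35D1, a carrier of UDP-glucuronic acid, rose from 24.9 ± 2.10 to 62.5 ± 0.904 CPM (1.30, limma adjusted p = 4.25e-11), while SLC35D2, a nucleotide sugar carrier, fell from 21.1 ± 0.636 to 11.8 ± 1.82 CPM (-0.81, adjusted p = 4.20e-06). Of the PAPS carriers, SLC35B2 rose from 101 ± 3.96 to 164 ± 8.43 CPM without overlap (0.70, limma adjusted p = 1.64e-09). SLC35B3 went from 51.7 ± 4.29 to 43.6 ± 3.67 CPM (-0.24, limma adjusted p = 0.00645), with overlapping groups and no call with the same total or quantile normalization. The sulfotransferases CHST2, from 17.4 ± 0.867 to 42.7 ± 2.12 CPM (1.25), and HS3ST3B1, from 7.23 ± 1.57 to 17.8 ± 1.47 CPM (1.21), rose (limma, adjusted p = 1.47e-10 and 4.67e-07). HS3ST3B1 and the member HS3ST3A1 are close copies in their catalytic part, so reads may be split between them.

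Of 13 other core proteins and receptors tested outside the panel, 7 were higher and 2 lower (69.2% called, against 72.9% of all genes). VCAN, or versican, a large chondroitin sulfate proteoglycan of the matrix, rose from 517 ± 22.5 to 672 ± 28.0 CPM (0.38, limma adjusted p = 4.55e-07), and SPOCK1, or testican, from 275 ± 11.9 to 347 ± 15.3 CPM (0.34, adjusted p = 2.65e-06). TGFBR3, or betaglycan, a co-receptor for TGF-beta, rose from 26.3 ± 1.09 to 39.0 ± 1.18 CPM (0.55, limma adjusted p = 5.68e-07), and AGRN, the heparan sulfate proteoglycan agrin, from 66.6 ± 9.84 to 84.8 ± 12.5 CPM (0.34, adjusted p = 0.00677) with overlapping groups. SRGN (0.14), TNFAIP6 (0.65) and HMMR made up the rest of the higher genes. COL18A1, a basement membrane collagen with heparan sulfate, fell from 123 ± 14.9 to 67.3 ± 7.76 CPM (-0.86, limma adjusted p = 1.66e-07). ACAN was the other gene called lower, from 0.671 ± 0.111 to 0.161 ± 0.140 CPM (-0.53). It passed the filter only through its low-glucose libraries, which favours a fall, so no weight is put on its call. Of 5 small leucine-rich proteoglycans outside the panel 3 were lower (60%, against 37.2% of all genes lower and 72.9% called either way). PODN fell from 6.34 ± 0.748 to 1.94 ± 0.645 CPM (-1.34, limma adjusted p = 2.19e-06). FMOD went from 2.55 ± 0.406 to 0.798 ± 0.287 CPM. OMD, below 1 CPM on average in both groups, passed the filter only through low-glucose libraries, which favours a fall. SLC35B2, VCAN, SPOCK1, TGFBR3, AGRN, SRGN, TNFAIP6, ACAN, FMOD, OMD, CHST1 and HS3ST1 fall outside the rule for naming genes and were chosen after values were seen.

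A few measured facts bear on single members. High-glucose replicate 4 was the lowest library of its group for 22 of the 48 tested members (45.8%), against 30.4% of all genes, and B3GAT3, CHPF2, SDC1, B4GALT7, BGN and HSPG2 are among those 22. The number of members called without it was 44. Exons of CHPF overlap TMEM198, those of CHPF2 overlap SMARCD3 and those of HSPG2 overlap LDLRAD2, each on the opposite strand, as do exons of CEMIP with MESD, IDUA with SLC26A1, GALNS with TRAPPC2L and COL18A1 with SLC19A1. Among members, exons of UGDH, PAPSS2, XYLT1, EXTL2, EXTL3, NDST1, SULF2, CHSY3, UST, HAS2, GPC6, CD44 and CSPG4 overlap noncoding RNAs on the opposite strand. Those of GLCE and CHPF2 overlap noncoding RNAs on their own strand. Exons of DSE also overlap TSPYL1, and those of SULF2 overlap NCOA3, on the opposite strand. NDST2, HS2ST1 and DSE share exons with a second protein-coding gene model on their own strand. Whether the counting used strand is not given in the sources used here, so reads of such neighbours cannot be told apart.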

How the data were processed

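RNA from 8 Hs578T libraries, 4 per glucose level, was taken as grouped by the treatment labels. The deposited table holds 1 normalized signal value per gene and library. The build hg38 and the tool edgeR are named in the submitters' processing notes, without versions, and the authors describe CPM with TMM factors for their RNA-Seq, and on that basis the deposited signal is called CPM here. The columns sum to 1205567 to 1229021 in low and 1017015 to 1036274 in high glucose, and not to the plain CPM total that the planned test had assumed. Setting each library to the same total therefore raises high-glucose values relative to low-glucose values. The values are normalized and not raw counts, so no count model was used. For its RNA-Seq the study names Tophat and the build hg19, which differs from the hg38 noted for these samples, so whether that alignment was used for this table is uncertain. The counting program is not given in the sources used here. TMM scaling centers fold changes near 0 on the assumption that most genes stay level.

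The filter kept 15570 genes reaching 0.5 CPM in 2 or more libraries. A linear model of log2(CPM + 1) on glucose group, with no covariate, was fitted in limma 3.58.1 under R 4.3.3, moderated by empirical Bayes with a variance trend. Differences are high minus low glucose, with Benjamini-Hochberg adjustment over all genes tested and calls under 0.05. Fold changes on this scale understate those of low genes. Folds of means are ratios of mean CPM. Ratios of related genes were compared by 2-sided exact permutation over 70 arrangements (Python 3.11.15) and adjusted over 12 pairs. The scripts were tested on simulated data. Each tested member was named with its group means and the others with their range, and values per library were given for the 10 rising and 10 falling called members with the largest change and at least 5 CPM in a group, and for members of ratio pairs. Of the other pathway genes, 8 rising and 8 falling were named by the same rule. The members and the lists were chosen with earlier results of these data known.

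The depth was estimated from the value of 1 count, and limits from counts cover counting error only. At 3 counts the floor was 0.26 to 0.354 CPM. Gene positions and promoter windows are from RefSeq (GRCh38.p14), where 9 members had no promoter entry. The genome sequence at hand was of another build and was not read. Transcript lengths and exon overlaps are from GENCODE, and TMEM2 was matched as CEMIP2. The fit was repeated with other pseudocounts and filters, with 3 further scalings, without the variance trend, with a replicate block and without each library in turn. Leaving out libraries in the ratio test was added after the data were seen.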

Additional observations from a re-analysis of the deposited data

Results flagged for a closer look

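Among 128 groups of 4 libraries (48 tested members and 16 named pathway genes at 2 glucose levels), 3 held a library whose gap to the others exceeded the 95% limit of Dixon's test, where chance alone flags about 1 group in 20. XYLT1 was at 99.9 CPM in low-glucose replicate 4, against 87.2 to 89.1 CPM in the other low-glucose libraries. ARSB was at 42.3 CPM in high-glucose replicate 2, against 46.5 to 46.8 CPM in the others. COL18A1 was at 145 CPM in low-glucose replicate 2, against 113 to 117 CPM in the others. ARSB and COL18A1 remained called in each fit that left out 1 library, and so did XYLT1.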

How the results depend on the processing

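Against 47 members called, 42 to 47 were called under the other settings with all libraries, and 44 to 46 in fits that left out 1 library. Members called higher ranged from 29 to 32 over all settings and members called lower from 13 to 16, except for 10 with the same total in each library. That scaling reversed PAPSS1 (0.0193) and XYLT1 (0.0697), neither of which then passed, and ended the calls of NDST2, CHPF, UST and HSPG2, while the median of all genes moved to 0.20. CHPF also lost its call with quantile normalization, median ratio scaling, no filter or no variance trend, and without low-glucose replicate 2 or 3 or high-glucose replicate 3 or 4 (-0.15 to -0.30). XYLT1 and NDST2 lost their calls with quantile normalization, NDST2 and SDC2 without a variance trend and CHST12 without the filter. NDST2 lost its call without low-glucose replicate 2 or 3 or high-glucose replicate 3 or 4 (-0.21 to -0.27). CHST12 passed only without low-glucose replicate 3 or high-glucose replicate 3 among the fits with 1 library left out, and SDC2 lost its call without low-glucose replicate 4 or high-glucose replicate 2. The cause of these losses was not tested. With a replicate block, 46 members were called, CHST12 being lost (adjusted p = 0.0726 in limma), and no other call of a member changed. The numbers were not taken as pairs, since the deviations of 4 same-numbered pairs correlated at -0.027 to 0.112 and not every library correlated best with its own number. As many ratio pairs (11) passed with a pseudocount of 0.1 or 5 CPM and without each library in turn, the latter an alternative added after the data were seen. Of these, 9 held genes called in opposite directions, against 5 with the same total in each library and 6 to 9 under the other settings, a count also added after the data were seen. Sign flips within numbered pairs were not run, since no p they can give passes. HS6ST2 and SULF2 were below the filter, so of all settings only the fit without a filter took them in.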
